A study of Mus musculus with 16 samples.

Results

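Zymogenic chief cells sit at the base of the corpus glands of the stomach and secrete the digestive proteins of gastric juice. Described here are 8 chief cell genes among the 24964 gene symbols measured in mouse corpus: the pepsinogen genes Pgc and Pga5, the other secreted products Clps, Cblif and Chia1, the secretory regulator Bhlha15, and Creg2 and Nucb2. The first 6 were named for what they are known to do in chief cells, though with earlier results of these data known. Counts of calls among the 6 are therefore not from a set picked blind to these values. Creg2 and Nucb2 were chosen by measured values: their log2 response to adrenalectomy differed between the genotypes in these same libraries. The interaction that chose them is made of all 4 groups, so their values in every comparison are given as descriptions with no test. All 8 were among the 15385 genes that passed the filter on low counts. Cblif was listed in the count table under its older symbol Gif.

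RNA came from a biopsy, 4 mm in size, of the lesser curvature of the corpus of female mice aged 8 weeks, with 4 libraries in each of 4 groups. WT-S and WT-A were wild-type C57BL/6 mice, and TTP-S and TTP-A were mice of the TTPΔARE genotype, congenic on C57BL/6. The TTPΔARE allele is a deletion of an AU-rich element of Zfp36. That gene encodes tristetraprolin (TTP), an RNA-binding protein that speeds the decay of transcripts with such elements. The allele is carried in the germ line and is not limited to one cell type. Mice of the A groups had their adrenal glands removed (adrenalectomy), which takes away the main source of corticosteroid hormones and is labelled as inducing gastric inflammation. For the S groups the label has SPEM, spasmolytic polypeptide-expressing metaplasia. The labels do not say what the letter S stands for or whether the S mice had an operation, so S is used only as the name of a group. They do not say whether the libraries of a group came from separate mice either, and p-values then measure only the spread between these libraries.

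Chief cells pack pepsinogens, the inactive precursors of the acid protease pepsin, into large granules at their apical end. BHLHA15, also called MIST1, is a basic helix-loop-helix transcription factor that builds this granule and endoplasmic reticulum apparatus in many secretory cells. In the corpus, mucous neck cells are thought to mature into chief cells. After injury, chief cells can lose their granules and take on mucous traits, which is the origin most often given for SPEM. In a biopsy, fewer chief cells and less RNA per chief cell cannot be told apart.

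Total counts were 17453930 to 25849472 per library, and the 8 genes together took 6.35% to 16.1% of them. The genotype was checked first. Zfp36 was at 55.1 to 65.8 CPM (counts relative to the library total, scaled by the trimmed mean of M-values, TMM) in WT-S, 63.2 to 88.6 in WT-A, 115 to 129 in TTP-S and 110 to 131 in TTP-A, so no TTPΔARE library overlapped a wild-type one. The libraries WT-A 3 and WT-A 4 stood apart from the other 14. Their deviations from the gene medians followed transcript GC content with a Spearman rho of 0.72 and 0.74 across genes, against at most 0.30 in size elsewhere. The log2 changes of the 8 genes that rest on WT-A, and most counts of called genes in the other lists, are therefore also given without this pair. The ratios are given for each library.

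The stretches just upstream of the start sites show what the genes have at the place where transcription begins. RefSeq windows on GRCm38.p6 were found for 6 of the 8 genes, all but Pga5 and Clps. Each line holds the 60 bases before the start site, 5′ to 3′ on the gene's strand, with capitals marking TATAAA (the TATA box) and CANNTG (the E box that basic helix-loop-helix proteins bind). The stretches are chr17:47726782-47726841 (plus strand) for Pgc, chr19:11747499-11747558 (plus) for Cblif, chr3:106113322-106113381 (plus) for Chia1, chr5:144190226-144190285 (plus) for Bhlha15 and chr7:116504309-116504368 (plus) for Nucb2. The last bases of the Cblif and Nucb2 stretches lie inside the annotated spans of these genes, which start at 11747543 and 116504352. The Creg2 start site of the window lies inside the annotated span of the gene on chromosome 1, and its bases are not printed.
Pgc: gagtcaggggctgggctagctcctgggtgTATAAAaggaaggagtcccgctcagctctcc
Cblif: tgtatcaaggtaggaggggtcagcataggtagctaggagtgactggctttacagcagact
Chia1: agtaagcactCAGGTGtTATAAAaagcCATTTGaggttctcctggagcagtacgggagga
Bhlha15: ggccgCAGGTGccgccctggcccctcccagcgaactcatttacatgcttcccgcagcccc
Nucb2: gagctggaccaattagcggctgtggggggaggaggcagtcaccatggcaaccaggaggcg

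Pgc carried TATAAA with its first base at -31, and Chia1 carried it at -43. TATAAA on either strand was present in 13.6% of 32851 mouse windows of 300 bases (250 before the start and 50 after), and 1.99% had it on the forward strand between -40 and -20, where the TATA box usually lies. CANNTG, which reads the same on both strands, was present in 72.3% of all windows. Chia1 had 4 of them, Bhlha15 had 3, Cblif and Creg2 had 1 each, and Pgc and Nucb2 had 0. CATATG, the E box most often given for BHLHA15 and a special case of CANNTG, was in 3.91% of all windows and in none of the 6. A match is a run of letters in a short window and says nothing of binding.

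Levels of different genes were compared per length, as CPM per kilobase of the longest annotated transcript. The order was the same in all 4 groups. In WT-S, Pgc was highest at 83062 ± 21775 CPM per kilobase, followed by Clps at 25366 ± 4246, Cblif at 2327 ± 226 and Chia1 at 1953 ± 687 (SD, n = 4 each). Then came Pga5 at 54.9 ± 9.24, Nucb2 at 36.2 ± 2.14, Bhlha15 at 12.3 ± 1.72 and Creg2 at 3.28 ± 0.41. Cblif and Chia1 lay within their spread of each other in WT-S, and again in TTP-S at 2034 ± 110 and 1946 ± 111. The other neighbours in WT-S were separated by more than the sum of their SDs. By CPM, Pgc ranked 1 of all genes tested, Clps 6, Cblif 13 and Chia1 17, so these 4 secreted products were among the most abundant transcripts of the biopsy. Pga5 ranked 1887, which places it far from Pgc although both encode pepsinogens. Pga5 is also named Pepf, for pepsinogen F, the form known from the stomach of young mice.

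**Figure D1:**
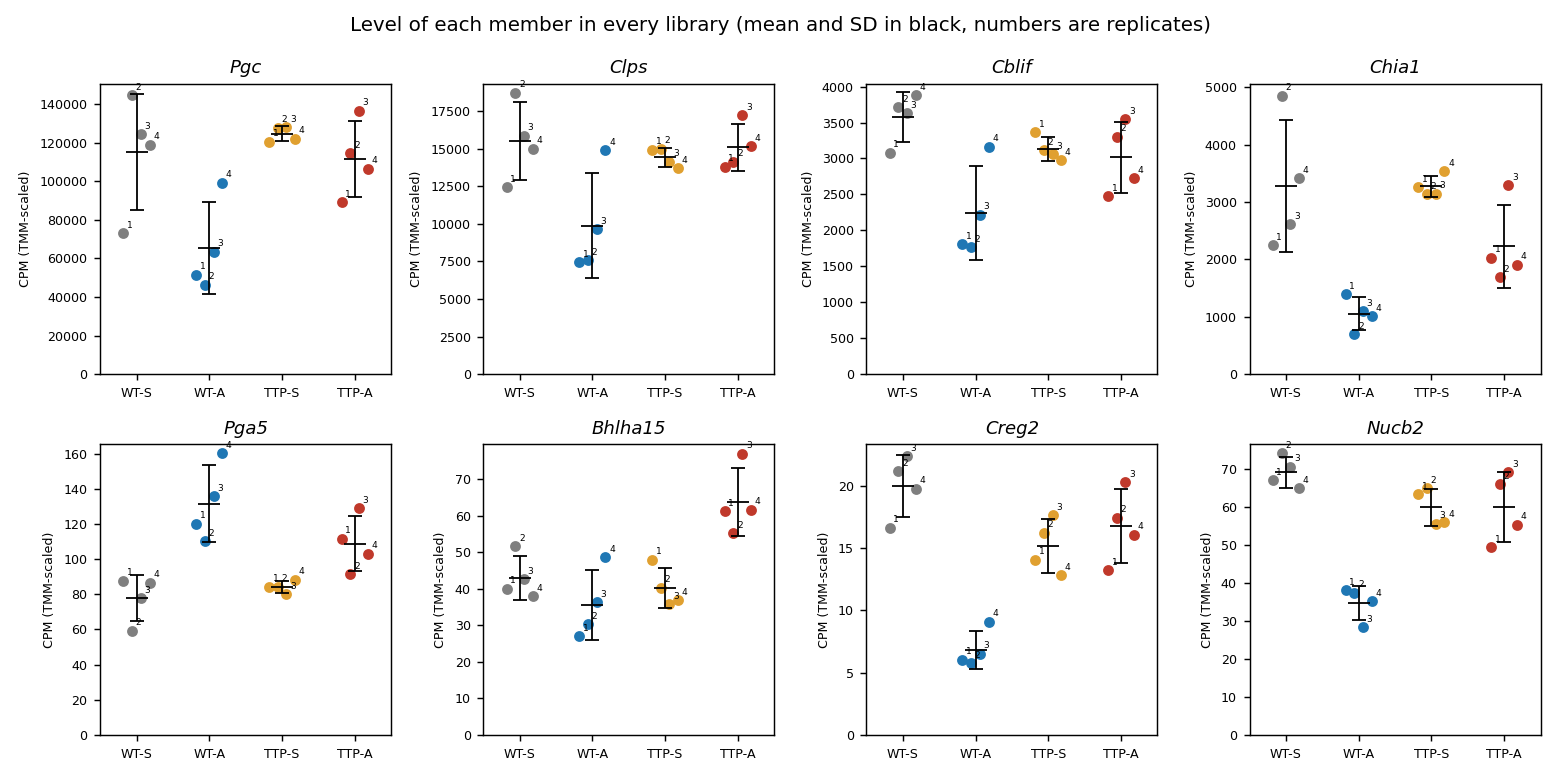
Each point is the CPM (TMM-scaled, vertical axis from 0) of one library of WT-S, WT-A, TTP-S or TTP-A for one gene, numbered by replicate, with the group mean and SD of 4 libraries in black. The WT-A libraries are low for Chia1, Creg2 and Nucb2 and high for Pga5, WT-A 4 sits with the S libraries for Pgc, Clps, Cblif and Bhlha15, and Bhlha15 is highest in TTP-A.

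Pgc, which encodes pepsinogen C, was at 73110, 144710, 124342 and 118996 CPM in WT-S 1 to 4 and at 51563, 46389, 63478 and 99333 CPM in WT-A 1 to 4. The libraries WT-A 1, 2 and 3 were below every WT-S library, and WT-A 4 was above WT-S 1. In TTPΔARE mice Pgc was at 120483, 127938, 127988 and 122143 CPM in TTP-S and at 89142, 114767, 136662 and 106484 CPM in TTP-A. These groups overlapped, and TTP-A 3 held more Pgc than any TTP-S library.

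Adrenalectomy was followed by lower levels of most chief cell products in wild-type mice. Pgc fell by 0.82 on the log2 scale (SE 0.22, 1.77-fold lower, adjusted p = 0.0219, edgeR quasi-likelihood test with Benjamini-Hochberg adjustment over all genes tested, here and below). Without WT-A 3 and WT-A 4 the fall was 1.24 (adjusted p = 0.00496). Of the 6 tested genes, 5 were called at an adjusted p under 0.05 in WT-A against WT-S, 4 lower and 1 higher. In this comparison 18.8% of all genes were called, 8.99% lower and 9.8% higher. The median change of the 6 genes was -0.66 on the log2 scale, against 0.01 for all genes.

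The call for Pgc rested on single libraries. It was lost without WT-S 2 (adjusted p = 0.0763), WT-S 3 (0.0530), WT-S 4 (0.0519) or WT-A 3 (0.0605), each time with a fall of at least 0.69. In TTPΔARE mice the change of Pgc was -0.16 (SE 0.22, 95% confidence interval -0.63 to 0.32, adjusted p = 0.836).

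Clps encodes colipase, a cofactor of lipase best known from the pancreas and also made by mouse chief cells. It was at 12417, 18708, 15872 and 14998 CPM in WT-S and at 7449, 7560, 9625 and 14892 CPM in WT-A. The profile was that of Pgc: WT-A 1 to 3 lay below all WT-S libraries and WT-A 4 among them. Clps fell by 0.65 (SE 0.18, 1.57-fold lower, adjusted p = 0.0233), and by 1.05 without WT-A 3 and WT-A 4 (adjusted p = 0.00126). The call was lost without WT-S 2 (adjusted p = 0.0828), WT-S 3 (0.0531) or WT-A 3 (0.0638). In TTP-S Clps was at 14925, 15009, 14117 and 13691 CPM and in TTP-A at 13785, 14138, 17238 and 15151 CPM, a difference of 0.06 (95% confidence interval -0.32 to 0.44, adjusted p = 0.933).

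The pancreas was examined as another source of colipase RNA, since a biopsy can carry neighbouring tissue. Of 12 exocrine pancreas genes, 4 passed the filter on low counts. Among those that did not, Cpa1, Ctrb1, Pnlip, Cela2a, Cela3b, Prss2 and Amy2a5 were at or near 0, with at most 8 counts in any library (Cela2a). Of the 4 tested, 1 was called in WT-A against WT-S, Try4, lower by 0.79 (adjusted p = 0.0210), a call lost in 4 of 8 fits that left out 1 library and without WT-A 3 and WT-A 4 (0.0534). Of all genes 18.8% were called there. The other 3 were not called, at 0.25 for Cel, 0.15 for Pnliprp1 and 0.28 for Cela1, and the median of the 4 was 0.20. In TTP-A against WT-A, Try4 was higher by 0.81 (adjusted p = 0.0424, lost in 6 of 8 such fits and without the pair) and Cela1 lower by 0.57 (0.0149, lost in 2 of 8). The other 2 were at 0.31 (Cel) and 0.09 (Pnliprp1), the median of the 4 was again 0.20, and 5.17% of all genes were called. The list summed to 75.9 to 107 CPM, with Pnliprp1 as its largest part, at 39.9 ± 7.54 CPM in WT-S and 44.1 ± 7.60 in WT-A. The part of pancreatic RNA in the Clps values was not tested beyond these levels.

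Cblif encodes the intrinsic factor that binds cobalamin (vitamin B12), which in the mouse is a chief cell product. It was at 3080, 3714, 3633 and 3881 CPM in WT-S and at 1810, 1764, 2219 and 3164 CPM in WT-A. Again only WT-A 4 reached the WT-S range. Cblif fell by 0.68 (SE 0.16, 1.598-fold lower, adjusted p = 0.0107), by 1.002 without WT-A 3 and WT-A 4, and remained called when any single library was left out. When only the WT libraries were fitted, the adjusted p of Pgc was 0.104, of Clps 0.114 and of Cblif 0.0611. In TTPΔARE mice Cblif was at 3365, 3114, 3056 and 2973 CPM in TTP-S and at 2478, 3301, 3546 and 2728 CPM in TTP-A, which overlap (log2 difference -0.05, 95% confidence interval -0.39 to 0.28, adjusted p = 0.936).

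Chia1, the acidic chitinase of gastric juice, had the largest fall of the 6. It was at 2252, 4855, 2616 and 3410 CPM in WT-S and at 1395, 699, 1100 and 1005 CPM in WT-A. All WT-A libraries were below all WT-S libraries, WT-A 4 included. Chia1 fell by 1.65 (SE 0.25, 3.13-fold lower, adjusted p = 0.00147), remained called when any single library was left out, and fell by 1.65 without WT-A 3 and WT-A 4 as well. In TTP-S it was at 3256, 3140, 3147 and 3539 CPM, and in TTP-A at 2031, 1686, 3292 and 1905 CPM. The libraries TTP-A 1, 2 and 4 were below all TTP-S libraries and TTP-A 3 was not. The difference of -0.55 (SE 0.24, 95% confidence interval -1.07 to -0.04) had an unadjusted p of 0.0378 and an adjusted p of 0.274.

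Pga5 moved the other way. It was at 87.6, 59.3, 77.9 and 86.5 CPM in WT-S and at 120, 110, 136 and 160 CPM in WT-A. All WT-A libraries were above all WT-S libraries, with WT-A 4 the highest. Pga5 rose by 0.76 (SE 0.13, 1.69-fold, adjusted p = 0.00272), and by 0.57 without WT-A 3 and WT-A 4 (adjusted p = 0.0182). It remained called when any single library was left out. In TTP-S it was at 84.4, 84.2, 80.1 and 88.2 CPM and in TTP-A at 111, 91.5, 129 and 103 CPM. These groups did not overlap either, but the difference of 0.37 (SE 0.13, adjusted p = 0.153) did not pass the threshold. Groups without overlap were found for 13.7% of all genes in TTP-A against TTP-S, and for 17.7% in WT-A against WT-S.

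The balance between the pepsinogen transcripts can be read within each library, where it does not depend on scaling. Per 1000 Pgc counts there were 1.198, 0.41, 0.63 and 0.73 Pga5 counts in WT-S and 2.33, 2.38, 2.14 and 1.61 in WT-A. The ranges did not overlap. In TTP-S the ratio was 0.63 to 0.72 and in TTP-A 0.80 to 1.25, again without overlap, and all TTP-A values were below all WT-A values. Chia1 per 1000 Pgc counts was 21.0 to 33.5 in WT-S, 10.1 to 27.1 in WT-A, 24.5 to 29.0 in TTP-S and 14.7 to 24.1 in TTP-A. The lowest of these, 10.1, was WT-A 4, the library in which Pgc was near the S level while Chia1 was not. Cblif per 1000 Pgc counts overlapped between WT-S (25.7 to 42.1) and WT-A (31.8 to 38.0). These ratios are descriptions, and no test was made on them.

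**Figure D2:**
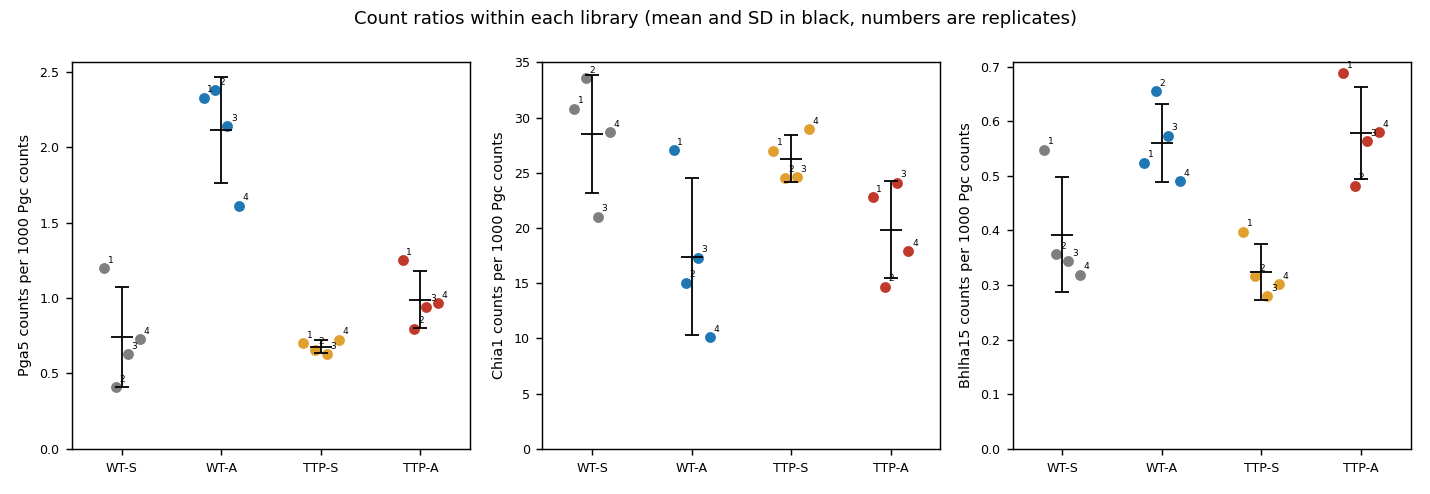
Counts of Pga5, Chia1 and Bhlha15 per 1000 Pgc counts (vertical axes from 0) in each library of the 4 groups, numbered by replicate, with the mean and SD of 4 libraries in black. The Pga5 ratio is highest in WT-A (1.61 to 2.38), the Chia1 ratio is lowest in WT-A 4 (10.1), and the Bhlha15 ratio is higher in both A groups than in TTP-S.

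The regulator Bhlha15 rose in TTPΔARE mice and did not pass the test in WT mice. It was at 40.1, 51.7, 42.7 and 38.0 CPM in WT-S and at 27.0, 30.4, 36.4 and 48.7 CPM in WT-A. The WT groups overlapped, and the difference of -0.28 (SE 0.16, adjusted p = 0.219) did not pass the threshold. It was -0.59 (adjusted p = 0.0232) without WT-A 3 and WT-A 4, -0.46 (adjusted p = 0.0357) without WT-A 4 alone, -0.43 (adjusted p = 0.0476) with offsets for GC content, and -0.47 (adjusted p = 0.0205) under limma voom with sample weights, so these fits called it lower.

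In TTPΔARE mice Bhlha15 was at 48.0, 40.4, 35.8 and 36.8 CPM in TTP-S and at 61.4, 55.3, 77.1 and 61.7 CPM in TTP-A. All TTP-A libraries were above all libraries of the other 3 groups. Bhlha15 rose by 0.66 in TTP-A against TTP-S (SE 0.16, 1.59-fold, adjusted p = 0.0390), and was the 1 of the 6 genes called in this comparison, in which 2.9% of all genes were called (1.55% higher). The call was lost without TTP-S 2 (adjusted p = 0.0966), TTP-S 3 (0.112), TTP-S 4 (0.130), TTP-A 1 (0.105), TTP-A 3 (0.105) or TTP-A 4 (0.0977), with a rise of 0.56 to 0.76 throughout.

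**Figure D3:**
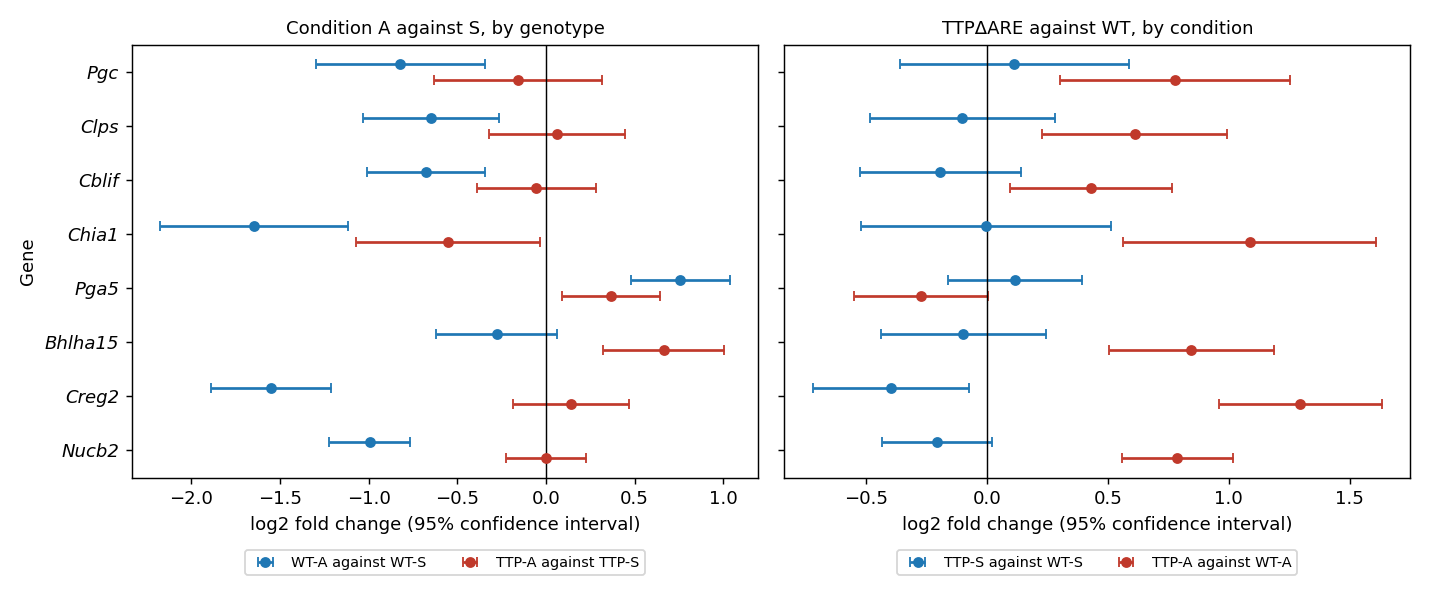
Points are log2 fold changes of each gene with 95% confidence intervals (bars) from the fit over all 16 libraries; the left panel sets A against S in each genotype and the right panel sets TTPΔARE against WT in each condition. In WT mice Chia1, Pgc, Clps and Cblif lie below 0 and Pga5 above. In TTPΔARE mice the bars of Bhlha15 and Pga5 lie above 0 and that of Chia1 below, and only Bhlha15 passed the threshold on adjusted p. All values of Creg2 and Nucb2 are descriptions, and their bars are no test, since these genes were chosen by these data.

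In condition S no difference between the genotypes was called. In TTP-S against WT-S 0 of the 6 genes were called, against 0.0325% of all genes (edgeR). None of the 6 had an unadjusted p under 0.05, against 1153 of all genes, and DESeq2 and limma voom called 0 of them as well. The differences of the 6 ran from -0.19 for Cblif (95% confidence interval -0.53 to 0.14) to 0.12 for Pga5 (-0.16 to 0.39). For Pgc the interval was -0.36 to 0.59. As a description, Creg2 differed by -0.40 (SE 0.15) and Nucb2 by -0.21 (SE 0.11).

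After adrenalectomy, 2 of the 6 genes were higher in TTPΔARE than in WT mice, in a comparison that called 5.17% of all genes (2.87% higher). Chia1 was higher by 1.09 (SE 0.25, 2.12-fold, adjusted p = 0.0270), with all TTP-A libraries above all WT-A libraries. Bhlha15 was higher by 0.84 (SE 0.16, 1.80-fold, adjusted p = 0.0150), also without overlap, where 12.2% of all genes had groups that did not overlap. The Chia1 call was lost without WT-A 3 (adjusted p = 0.0777) or TTP-A 3 (0.0915), and without the pair WT-A 3 and WT-A 4 (0.0927) at the same difference of 1.09. The Bhlha15 call was lost without TTP-A 3 (adjusted p = 0.0590), and without WT-A 3 and WT-A 4 the difference was 1.15 (adjusted p = 0.00290).

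Pgc and Clps stood just outside the threshold in TTP-A against WT-A. Pgc differed by 0.78 (SE 0.22, adjusted p = 0.0544), Clps by 0.61 (SE 0.18, adjusted p = 0.0578) and Cblif by 0.43 (SE 0.16, adjusted p = 0.104). Without WT-A 3 and WT-A 4 all 3 were called, Pgc at 1.19 (adjusted p = 0.0185), Clps at 1.01 (0.00311) and Cblif at 0.75 (0.0120). Pga5 differed by -0.28 (95% confidence interval -0.55 to 0.002, adjusted p = 0.184), by -0.17 (0.441) without WT-A 4 and by -0.083 (0.786) without WT-A 3 and WT-A 4.

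Whether the response itself differed between the genotypes was tested by the interaction, the response in TTPΔARE mice minus that in WT mice. None of the 6 genes was called, against 0.0585% of all genes (9 genes, edgeR). An unadjusted p under 0.05 was reached by 4 of the 6 and by 2344 of all genes. The interaction was 1.09 for Chia1 (SE 0.35, adjusted p = 0.188), 0.94 for Bhlha15 (SE 0.23, adjusted p = 0.121), 0.71 for Clps (SE 0.25, 0.230) and 0.62 for Cblif (SE 0.22, 0.231). For Pgc it was 0.67 (95% confidence interval -0.01 to 1.34, adjusted p = 0.331) and for Pga5 -0.39 (-0.78 to 0.002, adjusted p = 0.330). DESeq2 called Bhlha15 (adjusted p = 0.00963), and limma voom with sample weights called Pgc, Cblif, Clps and Bhlha15. Without WT-A 3 and WT-A 4, edgeR called Cblif (0.95, adjusted p = 0.0225), Clps (1.11, 0.00988) and Bhlha15 (1.25, 0.00988). It did not call Chia1 (1.10, adjusted p = 0.269), Pgc (1.08, 0.120) or Pga5 (-0.20, 0.687). The calls in WT mice and their absence in TTPΔARE mice are thus not shown by the main test to differ for any of the 6.

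Creg2 and Nucb2 were chosen for this difference, and their values describe its size. Creg2, a secreted glycoprotein of the family named after the cellular repressor of E1A-stimulated genes, was at 16.6, 21.2, 22.4 and 19.8 CPM in WT-S and at 6.03, 5.76, 6.51 and 9.09 CPM in WT-A. In TTP-S it was at 14.1, 16.2, 17.6 and 12.8 CPM and in TTP-A at 13.2, 17.4, 20.3 and 16.1 CPM. The WT-A libraries were below the libraries of all other groups. The log2 change with adrenalectomy was -1.55 in WT and 0.14 in TTPΔARE mice, TTP-A was higher than WT-A by 1.30, and the interaction was 1.69. The change in WT was -1.76, the difference between TTP-A and WT-A 1.51 and the interaction 1.91 without WT-A 3 and WT-A 4.

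Nucb2, a calcium-binding protein of the secretory pathway and the precursor of the peptide nesfatin-1, is also made in gastric endocrine cells. It was at 67.1, 74.3, 70.7 and 65.0 CPM in WT-S and at 38.1, 37.4, 28.3 and 35.3 CPM in WT-A. In TTP-S it was at 63.4, 65.0, 55.7 and 56.0 CPM and in TTP-A at 49.4, 66.0, 69.2 and 55.4 CPM. As for Creg2, every WT-A library was below every other library. The change was -0.99 in WT and 0.00 in TTPΔARE mice, TTP-A was higher than WT-A by 0.79, and the interaction was 0.99.

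The Nucb2 transcript has 41.8% GC, the lowest of the 8 members. This is percentile 10.8 of the 11493 tested genes with a GC value and a mean log2 CPM over 2. Its values were therefore also set against the GC trend of WT-A 3 and WT-A 4. With GC offsets its change in WT was -0.69, the difference between TTP-A and WT-A was 0.50, and the interaction was 0.70. Without WT-A 3 and WT-A 4 these were -0.88, 0.67 and 0.88. The change of Creg2 in WT was -1.49 with the same offsets.

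**Figure D4:**
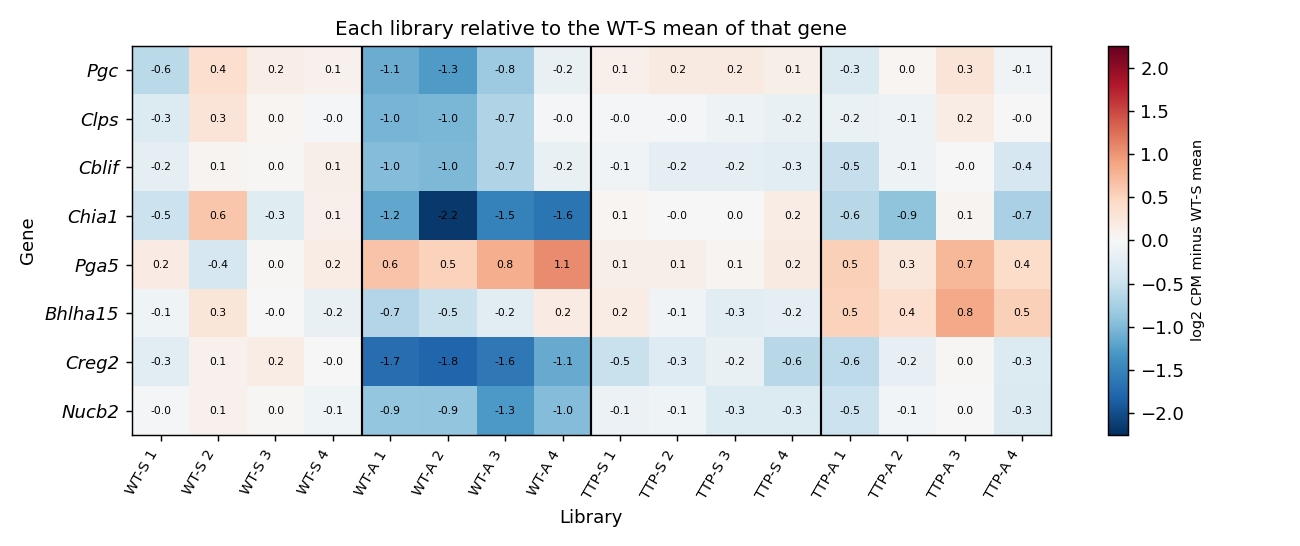
Each cell is the log2 CPM of one library (columns, 4 per group) minus the WT-S mean of that gene (rows), printed in the cell and coloured blue for lower and red for higher. Creg2 and Nucb2 are low in all 4 WT-A libraries, Pgc, Clps and Cblif are low in WT-A 1 to 3 and near 0 in WT-A 4, Pga5 is high in WT-A, and Bhlha15 is high in all 4 TTP-A libraries.

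The endocrine origin possible for Nucb2 was looked at through 10 markers of gastric endocrine cells, of which 9 were tested. In WT-A against WT-S, where 8.99% of all genes fell, 3 fell and 0 rose: Slc18a2, the vesicular monoamine transporter of enterochromaffin-like cells, by 0.71 (adjusted p = 0.00272), Pcsk1 by 0.63 (0.0456) and Hdc, the histamine-forming enzyme, by 0.89 (0.0492). The Pcsk1 call was lost in 6 and the Hdc call in 7 of 8 fits that left out 1 library. The count of 3 was 1 to 6 when 1 library was left out and 5 without WT-A 3 and WT-A 4. The median change of the list was -0.52. Ghrl, which encodes ghrelin, differed by -0.03 (SE 0.14) and Sst by 0.00 (SE 0.15). The list summed to 2352 to 3583 CPM in WT-S and 1852 to 3281 CPM in WT-A. Slc18a2 was higher in TTP-A than in WT-A by 0.72 (adjusted p = 0.0111), as Nucb2 was. It was the 1 endocrine marker called there, where 2.87% of all genes were called higher, all 9 tested markers were higher (median 0.38), and 3 were called without WT-A 3 and WT-A 4. The part of endocrine cells in the Nucb2 values was not tested.

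Some markers of other cell types also changed in WT-A. Of 10 mucous neck and SPEM markers, 4 rose in WT-A against WT-S and 0 fell, with Gpx2 at 1.25 (adjusted p = 0.00179) and Dmbt1 at 1.39 (0.00226), while Tff2, the spasmolytic polypeptide, differed by -0.06 (SE 0.17). Of 10 parietal cell markers, 4 fell, among them Kcne2, a subunit of the apical potassium channel, by 0.45 (adjusted p = 0.00681) and Aqp4 by 0.96 (0.00979). Called or not, 8 of the 10 were lower and 2 higher. Not called were Atp4a (12935.5 ± 1160 CPM in WT-S, 11409 ± 1997 in WT-A), Atp4b (6039 ± 351, 5036 ± 1321) and Car2 (2014 ± 409, 2475 ± 198), among others. When 1 library was left out, the count of called genes was 2 to 7 for either list, and without WT-A 3 and WT-A 4 it was 4 for neck and SPEM and 7 for parietal markers. Of all genes, 9.8% were called higher and 8.99% lower in this comparison. The median change was 0.75 for the neck and SPEM list and -0.22 for the parietal list, against 0.01 for all genes. Of 6 smooth muscle markers, 5 rose, and the list summed to 7822 to 9476 CPM in WT-A against 6576 to 7513 in WT-S, without overlap. This count was 1 to 5 when 1 library was left out and 1 without WT-A 3 and WT-A 4, and the calls of Des and Cnn1 were lost in 5 and 4 of 8 such fits. All 10 squamous (forestomach) markers were higher in WT-A than in WT-S (median log2 change 3.07), and 1 was called, Krt6a at 4.19 (adjusted p = 0.0241, lost in 3 of 8 fits), a share near that of all genes, while 2 were called without WT-A 3 and WT-A 4. The list summed to 3.86 to 369 CPM in WT-S, 59.5 to 2140 in WT-A, 36.9 to 1033 in TTP-S and 5.81 to 532 in TTP-A. In TTP-A against WT-A all 10 were lower (median -2.24) and 0 were called, in edgeR or under any alternative run. Their part in the chief cell results was not tested.

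In TTP-A against TTP-S, 2 neck and SPEM markers rose, Muc6, the mucin of neck cells, by 2.13 (adjusted p = 0.0352) and Gpx2 by 0.83 (0.0369), both calls lost in 7 of 8 fits that left out 1 library, where 1.55% of all genes rose, and no parietal or smooth muscle marker was called. In TTP-A against WT-A, Gpx2 was lower by 0.98 (adjusted p = 0.0176, lost in 2 of 8 such fits), Dmbt1 was lower by 1.08 (0.0232, lost in 3) and Kcne2 was higher by 0.38 (0.0372, lost in 4). Of the 6 smooth muscle markers 4 were lower, where 2.3% of all genes were called lower, each call was lost in 6 of 8 such fits, and 0 were called without WT-A 3 and WT-A 4. Without this pair the calls of Gpx2 (adjusted p = 0.0510) and Kcne2 (0.0587) were lost and that of Dmbt1 was kept (0.0164), while 4 other parietal markers were called higher. When 1 library was left out, 0 to 4 parietal markers were called higher. Dmbt1 was the listed neck or SPEM marker called in the interaction, at -1.999 (SE 0.33, adjusted p = 0.0350), a call lost in 12 of 16 fits that left out 1 library.

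The secretory apparatus around the products was described by a list of 8 genes reported as targets or partners of BHLHA15. In WT-A against WT-S 1 fell and 0 rose, a share near the 8.99% of all genes called lower. This was Tmed6, a cargo receptor of the early secretory pathway, at 154 ± 20.4 CPM in WT-S and 73.1 ± 27.3 in WT-A (log2 change -1.08, SE 0.20, adjusted p = 0.00383, and -1.52 without WT-A 3 and WT-A 4). Rab3d, a GTPase of secretory granules and a standard target of BHLHA15, was at 308 ± 10.4 CPM in WT-S and 320 ± 14.2 in WT-A (0.05, SE 0.05). The median change of the list was 0.08, against 0.01 for all genes.

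In TTPΔARE mice, where Bhlha15 itself rose, 1 of the 8 rose and 0 fell, where 1.55% of all genes rose. It was Xbp1, a transcription factor upstream of Bhlha15 in secretory cells, at 252 ± 5.96 CPM (TTP-S) and 299 ± 17.7 (TTP-A) (0.25, SE 0.06, adjusted p = 0.0385, a call lost in 7 of 8 fits that left out 1 library). Rab3d differed by 0.13 (SE 0.05, adjusted p = 0.157) and Tmed6 by -0.12 (SE 0.20). Under the alternatives run, 0 to 3 of the list were called higher and 0 to 1 lower in TTP-A against TTP-S. In TTP-A against WT-A 1 was called, Tmed6, higher by 0.78 (adjusted p = 0.0399, lost in 5 of 8 such fits, and 0.00418 without WT-A 3 and WT-A 4), where 2.87% of all genes were called higher. In this comparison 2 of the list were called lower without WT-A 1, with library totals and no TMM or under DESeq2, and 1 without TTP-A 2 or under voom.

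A list of 12 genes for entry into and folding in the endoplasmic reticulum, among them Hspa5, Pdia6 and Sec61a1, held 0 calls in all 5 contrasts. Of all genes, 18.8% were called in WT-A against WT-S, 2.9% in TTP-A against TTP-S and 5.17% in TTP-A against WT-A. The share was 0.0325% in TTP-S against WT-S and 0.0585% in the interaction. Its median change was 0.04 in WT and 0.07 in TTPΔARE mice. Without WT-A 1, 4 were called higher and 1 lower in TTP-A against WT-A and 2 lower in WT-A against WT-S. With library totals and no TMM, 4 were called higher in WT-A against WT-S, and other alternatives called at most 1. The count was 0 wherever WT-A was compared without WT-A 3 and WT-A 4.

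Of 7 other chief cell and gastric digestive genes, 6 were tested. Lipf, gastric lipase, had 0 counts in every library, which allows up to 0.172 CPM in the shallowest one (3 counts, counting error only). In WT-A against WT-S 2 fell, Amy1, an amylase, by 0.54 (SE 0.13, adjusted p = 0.0132) and Tnfrsf19, a receptor known as Troy that marks part of the chief cells, by 0.53 (SE 0.14, adjusted p = 0.0162), where 8.99% of all genes fell. Neither was called without WT-S 2 (adjusted p = 0.0539 and 0.0636). The chitinase gene Chit1 rose, from 46.8 ± 28.7 CPM in WT-S to 114 ± 20.5 CPM in WT-A (1.30, SE 0.35, adjusted p = 0.0201), a call lost in 2 of 8 fits that left out 1 library (adjusted p up to 0.0617, without WT-S 4). In the fit without WT-A 3 and WT-A 4, Chit1 and Tnfrsf19 were called (adjusted p = 0.0346 and 0.0150) and Amy1 was not (-0.33, 0.101). In TTPΔARE mice Chit1 was at 26.5 ± 1.76 CPM (TTP-S) and 80.5 ± 33.4 CPM (TTP-A) (1.604, adjusted p = 0.0266), a call lost in 6 of 8 such fits. Lgr5, a receptor found on some chief cells, differed by 0.14 (SE 0.15) in WT and 0.36 (SE 0.16, adjusted p = 0.272) in TTPΔARE mice.

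Across the 16 libraries the abundant products varied together. The Pearson correlation of log2 CPM was 0.95 between Pgc and Clps and 0.90 between Pgc and Cblif, and within groups, after taking out the group means, it was still 0.93 and 0.89. Between Pgc and Chia1 it was 0.82, and 0.49 within groups. Pga5 correlated with Pgc at -0.51 over all libraries and at 0.17 within groups. Creg2 and Nucb2 correlated at 0.92, and at 0.37 within groups. Both were chosen for a response that differed between the genotypes, so the value of 0.92 follows in part from that choice. The libraries behind these values share the 4 groups, their scaling and, in WT-A, the GC trend, so the correlations are descriptions.

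The genes most like each member were sought among 9336 tested genes with a mean of at least 10 CPM. Closest to Pgc was Pla2g1b, a secreted phospholipase, at r = 0.98 over 16 libraries, and closest to Cblif was Tmed6 at 0.97. Closest to Clps was Furin, a proprotein convertase, at 0.97. For Chia1 it was Cobll1 at 0.93, with 0.60 within groups, and for Pga5 it was Hspa1b, a heat shock gene, at 0.94. Creg2 was closest to Ces1e at 0.98, and Nucb2 to Ero1lb, an oxidase of the endoplasmic reticulum of secretory cells, at 0.96. Bhlha15 had the weakest best match, Anpep at 0.82. Without WT-A 3 and WT-A 4 these 8 values ran from 0.82 to 0.98.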

How the data were processed

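RNA was measured in 16 libraries of mouse stomach corpus. The authors deposited 1 table of raw read counts per gene symbol. The submitters' processing notes name STAR 2.7.0f, featureCounts, Subread 1.6.4, DESeq2 and mm10, without role or order. The annotation, the strand setting and filters are not given in the sources used here, so reads of overlapping, antisense or near-identical genes may have been counted together. Total counts were 17453930 to 25849472, and the 8 genes had 167 to 3412066 counts per library.

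The deposited counts were fitted with edgeR 4.0.16 (R 4.3.3): filterByExpr (15385 genes), TMM scaling, a quasi-likelihood fit of 4 group means over all 16 libraries, and Benjamini-Hochberg adjustment over all genes tested. Each SE is the size of the log2 change divided by the root of its F statistic. CPM, log2 CPM (prior count 2) and confidence intervals are computed from these counts. Transcript length and GC content are from the longest GENCODE transcript of each symbol. On simulated data (WT-A against WT-S, 15276 genes), 81.5% of 200 genes changed 2-fold were recovered and 3.55% of calls were false. No pair of replicates agreed within counting noise (chi-square per degree of freedom at least 4.69), so none was counted as 1 library deposited again.

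The members and lists were chosen with earlier results of these data known. A test of Creg2 and Nucb2 in TTP-S against WT-S was planned and is not used, since that contrast enters the interaction that chose them. The genes named are the 8 members, Zfp36, the members of 13 lists (called ones first) and the 3 genes most correlated with each member, of which the closest are printed. Alternatives were other scalings and filters, DESeq2 1.42.0, limma 3.58.1 (voom), a newer edgeR fit, a replicate block, fits without each library or without WT-A 3 and WT-A 4, only the groups compared, and, added after seeing the data, GC offsets by loess (span 0.5).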

Additional observations from a re-analysis of the deposited data

How the results depend on the processing

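Of 642 recomputed changes of the 6 tested genes, 575 kept their direction and their side of the threshold, 23 lost and 35 gained a call, and 9 reversed. Of 214 values of Creg2 and Nucb2, which had no test, 211 moved by less than an SD and 3, all of Nucb2 with GC offsets, by more. All reversals were of values near 0 that were called in neither fit. In TTP-A against TTP-S, Cblif became 0.0134 with library totals and no TMM and ran from -0.14 to 0.0294 without each library in turn (0.0294 without TTP-A 1), and Clps ran from -0.0079 (without TTP-A 3) to 0.10. In TTP-S against WT-S, Chia1 became 0.0814 under voom and ran from -0.15 to 0.24 without each library (above 0 without WT-S 2, WT-S 4, TTP-S 2 or TTP-S 3), and Pgc ran from -0.0537 (without WT-S 1) to 0.24.

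The count of the 6 tested genes called in WT-A against WT-S (5) was 6 under voom, without WT-A 3 and WT-A 4 and with GC offsets, 2 when only the groups compared were fitted, and 3 to 6 without each library in turn. In TTP-A against TTP-S (1) it was 3 under voom, 0 with the replicate block, 2 with only the groups compared, and 0 to 1 without each library. In TTP-A against WT-A (2) it was 4 with no TMM, 4 under DESeq2, 5 under voom, 4 without WT-A 3 and WT-A 4, 4 with GC offsets and 0 with only the groups compared, and 0 to 5 without each library (0 without TTP-A 3, 1 without WT-A 3, 5 without WT-A 4). In the interaction (0) it was 1 under DESeq2, 4 under voom, 3 without WT-A 3 and WT-A 4, 1 with GC offsets, and 0 to 3 without each library (3 without WT-A 4). In TTP-S against WT-S it was 0 under every alternative run. The interaction was fitted in all 4 groups only. Calls over all genes moved under the same alternatives too, within the ranges given next. These counts therefore do not describe the 6 genes alone. The cause of these moves was not tested, except that fewer libraries were fitted in some.

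Over all genes, the calls ranged from 675 to 4977 in WT-A against WT-S, 60 to 2346 in TTP-A against TTP-S, 1 to 175 in TTP-S against WT-S, 1 to 3202 in TTP-A against WT-A and 2 to 268 in the interaction. With no TMM the median of all genes in WT-A against WT-S shifted to 0.16, and 89.8% of calls were higher, against 52.2% with TMM. The same scaling gave 70.5% (53.6% with TMM) in TTP-A against TTP-S and 12.9% (55.5%) in TTP-A against WT-A. Without WT-A 3 and WT-A 4 the latter was 71.2%.

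Replicate numbers are shared by the groups, but the labels do not say that they pair libraries. Deviations of the 24 same-numbered pairs correlated at -0.51 to 0.33, 7 of them over 0.1, and 3 of 16 libraries correlated best with their own number. With the replicate block, Bhlha15 in TTP-A against TTP-S was 0.66 (adjusted p = 0.0665) and Pgc in TTP-A against WT-A was 0.79 (adjusted p = 0.0470), and no other call of the 6 changed. At 167 counts, the lowest of any member, Creg2 in WT-A is the value most limited by depth.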

Other observations

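Of 8 surface mucous cell markers, 0 were called in WT-A against WT-S, where 8.99% of all genes were called lower. In TTP-A against TTP-S, where 2.9% of all genes were called in either direction and 1.55% higher, 1 fell. This was Muc5ac, the mucin of surface cells, by 1.04 (edgeR, adjusted p = 0.0228), a call lost in 6 of 8 fits that left out 1 library. The list summed to 45759.5 to 63477.4 CPM in WT-A and 64842.1 to 73103.9 in WT-S, without overlap. In TTP-A it was 38716.5 to 64727 CPM and in TTP-S 67423.3 to 72814.5, again without overlap. The median change of the list was -0.30 in WT and -0.44 in TTPΔARE mice. The counts called lower were 0 to 3 and 0 to 5 in fits that left out 1 library, and 3 in WT-A against WT-S without WT-A 3 and WT-A 4. Of 6 macrophage markers, 3 rose in WT-A against WT-S, where 9.8% of all genes rose, Cd68 by 0.95 (adjusted p = 0.00147, kept in all 8 such fits), Cd14 by 0.63 (0.0364, lost in 5) and Csf1r by 0.54 (0.0463, lost in 6). Cd68 was the 1 called without WT-A 3 and WT-A 4, and 0 were called in TTP-A against TTP-S. Of 6 adipose markers, 2 fell in TTP-A against TTP-S, Fabp4 by 0.68 (adjusted p = 0.0208, lost in 5 of 8 such fits) and Plin4 by 0.60 (0.0446, lost in 6). Of all genes, 2.9% were called there in either direction and 1.55% higher. Of the T cell markers, 2 were tested and 0 were called in any contrast, while DESeq2, voom, GC offsets and the fit without WT-A 3 and WT-A 4 each called 1 higher in TTP-A against WT-A. Of the tested pancreas genes, Try4 fell in WT-A against WT-S by 0.79 (adjusted p = 0.0210, lost in 4 of 8 such fits), from 11.9 ± 4.17 to 6.91 ± 1.08 CPM, and Cela1 fell in TTP-A against TTP-S by 0.46 (adjusted p = 0.0352, lost in 6 of 8 such fits).

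The Bhlha15 to Pgc ratio was 0.32 to 0.55 Bhlha15 counts per 1000 Pgc counts in WT-S, 0.49 to 0.66 in WT-A, 0.28 to 0.40 in TTP-S and 0.48 to 0.69 in TTP-A. The ranges did not overlap in TTPΔARE mice and overlapped in WT mice. These are values with no test.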
